A study of Danio rerio with 12 samples.

Results

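The genes described here are the Wnt ligands of the zebrafish gene table, their Frizzled receptors and Lrp co-receptors, the R-spondins, the secreted inhibitors, the Axin and Tmem88 proteins, and the Lef/Tcf factors. They were chosen by gene symbol, and 67 of 25680 genes matched. A gene was described in a tissue where its mean was 1 or more counts per 1000000 counts of the library (CPM) over all libraries of that tissue. This kept 59 genes in whole embryos at 25 hours post fertilisation (hpf) and 51 in hearts at 48 hpf. Of these, 48 were kept in both tissues, 11 in embryos only and 3 in hearts only. The 5 genes kept in neither were wnt2ba, wnt6a, fzd9a, rspo4 and notum1b. Nearest to the threshold in embryos were a wnt8a gene (ENSDARG00000078507), inside at 1.03 CPM, and notum1b, outside at 0.577 CPM. In hearts these were notum2, inside at 1.11 CPM, and wnt3, outside at 0.920 CPM. Symbols are those of the deposited table, in which wnt11r is the gene now called wnt11 and wnt11 is the gene now called wnt11f2. The symbol wnt8a belongs to 2 neighbouring genes on chromosome 14, at 34150131 to 34154585 and 34154902 to 34157410 (coordinates here are those of the deposited table, GRCz10 per the submitters' processing notes), so how their reads were divided is uncertain.

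The libraries came from zebrafish that lacked functional tet2 and tet3, and from controls. Both encode dioxygenases that oxidise the methylated cytosines of DNA. Fish labelled as double mutants (DM) had inactivating mutations in tet2 and in tet3. Siblings were wild types mixed with fish heterozygous for tet2, tet3 or both, and wild type (WT) hearts carried the wild type sequence. Embryos gave 3 sibling and 3 DM libraries, and manually dissected hearts gave 2 WT, 2 sibling and 2 DM libraries, numbered 1 and 3 in the labels. The strain background is AB in every label, while the growth protocol names crosses of AB and TU for wild types. Neither the alleles nor the number of animals behind a library is given in the sources used here. Sibling pools of mixed genotype are therefore not wild type controls.

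Wnt ligands are secreted lipid-modified proteins that bind Frizzled receptors together with the co-receptors Lrp5 or Lrp6. Binding recruits Dishevelled and Axin to the membrane, which stops the degradation of beta-catenin, and beta-catenin then acts on target genes through Lef/Tcf factors. R-spondins raise the amount of Frizzled at the cell surface, while Dkk1 blocks Lrp5/6 and Sfrp, Frzb and Wif1 bind Wnts outside the cell. In the zebrafish embryo the pathway patterns the brain, tail and fins, and in the heart it acts in cardiomyocyte differentiation and valve formation.

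Embryo libraries held 8341467 to 16700992 counts and heart libraries 3289161 to 5963478, so that 3 counts, taken as the limit for a count of 0, equal 0.180 to 0.360 CPM in embryos and 0.503 to 0.912 CPM in hearts. These limits cover counting error only. In embryos tet2 had 77.7 to 120 CPM for siblings and 87.5 to 152 CPM in DM, and tet3 48.4 to 95.0 and 35.0 to 92.1 CPM. In hearts tet2 had 141 and 351 CPM for WT, 251 and 167 CPM for siblings and 139 and 167 CPM in DM, and tet3 had 68.5 to 119 CPM in all 6. edgeR called neither gene in any comparison, so transcript levels do not check the genotype labels. Markers of cardiomyocytes made up 1.42% to 5.07% of heart counts against 0.0284% to 0.0442% of embryo counts. The sibling and DM hearts numbered 1 also held lens transcripts (0.234% and 0.104% of counts by the lens and retina markers). DM heart 1 also stood apart in fast muscle genes (mylpfa at 908 CPM, against 12.1 to 83.6 CPM in the other hearts, and tnnt3b at 363 against 7.59 to 32.8 CPM) and in the liver gene fabp10a (50.9 against 1.12 to 3.3 CPM). Without both hearts numbered 1, the DM and sibling groups hold 1 library each, so the fold changes given for that setting carry no test, and the heart libraries differed in the share of neural markers, from 0.0494% to 0.435%. Heart RNA was amplified before library construction and embryo RNA was not, so tissue, stage and protocol cannot be told apart and levels are not compared between tissues. In bulk tissue, fewer cells of a type and less RNA per cell cannot be told apart either. No transcript lengths were at hand, so levels are not compared between genes.

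In DM embryos 4 of 11 Frizzled receptor genes, both Lrp co-receptor genes and 3 of 5 Lef/Tcf genes were called lower when the replicate number was a block. That fit called 2 Dkk genes higher and no ligand gene, while edgeR without the block called 0 of 17831 genes. With the replicate number as a block in the edgeR quasi-likelihood fit, 14 of 59 Wnt genes were called (adjusted p under 0.05, Benjamini-Hochberg over all genes tested). Of these, 12 fell: the receptors fzd3a, fzd4, fzd5 and fzd8a, both Lrp co-receptors, the factors tcf7l1a, tcf7l1b and tcf7l2, the inhibitors axin1 and tmem88a, and the secreted inhibitor sfrp1a. The 2 that rose were dkk1a and dkk2, both of the Dkk family. Over all 17831 genes tested the same fit called 13.8%, with 9.39% lower and 4.37% higher. The median log2 fold change of the Wnt genes was -0.06, beside 0.02 for all genes, and 35 of the 59 were negative, beside 48.2% of all genes.

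The block decides these calls. Without it, edgeR called 0 of the 17831 genes and 0 of the 59 Wnt genes, while 585 genes (3.28%) and 8 Wnt genes had an unadjusted p under 0.05. DESeq2 without the block called 36 genes (0.150%), among them tmem88a (adjusted p = 0.0308) and dkk2 (adjusted p = 0.0371). Leaving out embryo libraries in turn, the DESeq2 count of Wnt genes ranged from 0 to 10, with 10 reached without DM replicate 1, and neither of these calls was stable. tmem88a was called without DM replicate 1 (adjusted p = 0.00533) and not without any other library (adjusted p of 0.268 to 0.982). dkk2 had no adjusted p without DM replicate 1 and was not called without any other library (adjusted p of 0.236 to 0.934). Equally numbered embryo libraries deviated from their group means together, but sibling replicate 2 and DM replicate 3 did so as well. In sibling replicate 2 and in DM replicates 2 and 3, genes with long genomic spans were low (correlations across 17831 genes of the library's deviation with log span of -0.31, -0.37 and -0.34, against 0.25 to 0.39 in the other libraries). The neural marker share was also low in these 3 libraries, at 0.0809%, 0.0647% and 0.0645%, against 0.120% to 0.128% in the others. The neural marker gfap was not low there, at 257, 267 and 258 CPM against 231 to 343 CPM in the others. The Wnt genes had a median span of 19.6 kb beside 13.8 kb for all genes. With the span trend removed and the block kept, edgeR called 15 Wnt genes and 2324 genes in all (13.0%). The calls of axin1 (adjusted p = 0.0935) and lrp6 (adjusted p = 0.0576) were then lost, while rspo2, wnt3 and fzd2 were gained. Some other markers were lower in the DM embryos, while gfap (1 of 7 neural markers) and krt8 (1 of 6 skin markers) were higher in every DM embryo than in every sibling. Lens and retina markers made up 0.0109% to 0.0261% of sibling counts and 0.00446% to 0.00647% of DM counts, and 7 of the 9 were lower in every DM embryo than in every sibling, with atoh7 at 0 in 1 of the DM libraries. Neural crest and pigment markers made up 0.0183% to 0.0283% and 0.0104% to 0.0180% (3 of 8 without overlap), and endocardial and endothelial markers 0.0180% to 0.0214% and 0.0132% to 0.0177% (3 of 9). These marker counts are from unscaled CPM. Of all genes tested, 3.59% were lower without overlap once library sizes were scaled. The part of these shares and of the neural share in the results was not tested.

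**Figure D1:**
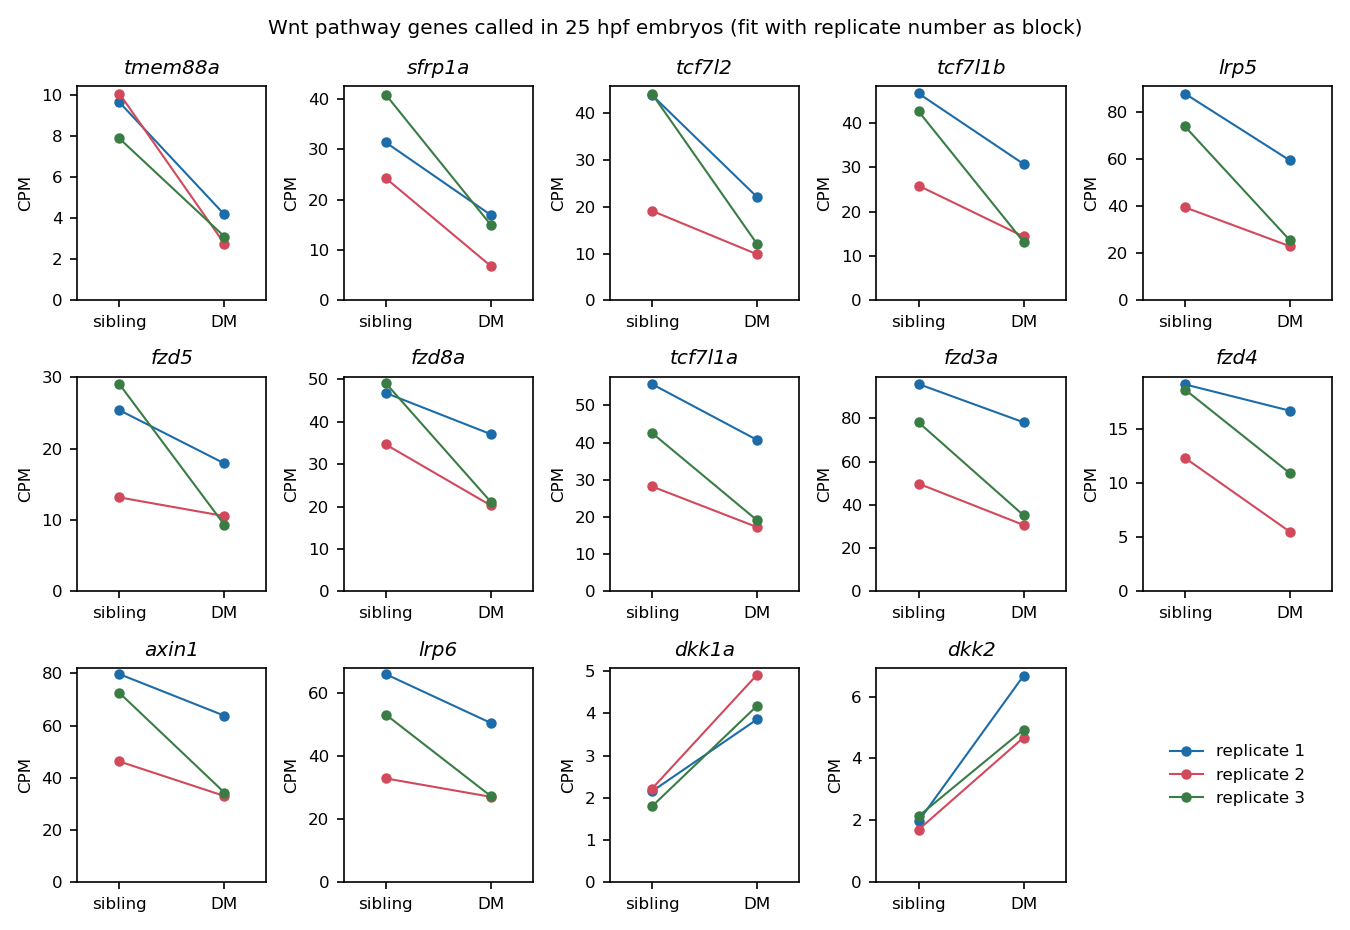
CPM in each 25 hpf embryo library for the 14 Wnt genes called in the edgeR fit with the replicate number as a block; lines join the sibling and DM libraries of the same number, and each vertical axis starts at 0. In all 14 genes every line runs in the direction of the call, and in several the DM library numbered 1 lies above a sibling library.

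The Lef/Tcf factors bind DNA and carry beta-catenin to its target genes. tcf7l2 (ENSDARG00000004415, chromosome 12, 30864834 to 30988414) had 43.8, 19.1 and 44 CPM for sibling replicates 1 to 3 and 22.0, 9.83 and 12 CPM for DM replicates 1 to 3. Each DM library lay below its equally numbered sibling, but the groups overlapped, since sibling replicate 2 was below DM replicate 1. The blocked log2 fold change was -1.20 (SE 0.17, edgeR adjusted p = 6.28e-05). tcf7l1b, of the Tcf subtype that represses targets when beta-catenin is absent, had 46.6, 25.8 and 42.5 CPM for siblings and 30.7, 14.4 and 13.2 CPM for DM embryos, a blocked log2 fold change of -0.95 (SE 0.17, adjusted p = 0.000972). Its paralog tcf7l1a, the gene mutated in headless zebrafish, had 55.7, 28.2 and 42.5 CPM against 40.7, 17.3 and 19.1 CPM, a change of -0.69 (SE 0.16, adjusted p = 0.00582). In both genes sibling replicate 2 was the lowest sibling, and DM replicate 1 the highest DM library. lef1 and tcf7 were not called, with blocked log2 fold changes of -0.03 and -0.39. The call of tcf7l1a was lost without pair 1 (adjusted p = 0.0634), whereas tcf7l2 and tcf7l1b were called without any single pair.

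Both co-receptors fell. lrp5 (ENSDARG00000006921, chromosome 25, 10546344 to 10672001) had 87.9, 39.6 and 74.0 CPM for siblings and 59.5, 23 and 25.5 CPM for DM embryos, with a blocked log2 fold change of -0.88 (SE 0.17, edgeR adjusted p = 0.00164). lrp6 had 65.9, 32.9 and 53.1 CPM against 50.5, 27.1 and 27.3 CPM, and changed by -0.47 (SE 0.16, adjusted p = 0.0444). All 3 pairs ran downward in both genes, and in both the groups overlapped through sibling replicate 2 and DM replicate 1. The drop was largest in pair 3 (log2 of -1.345 for lrp5 and -0.774 for lrp6). That pair joins a sibling library high in genes with long spans to a DM library low in them. Without pair 3 both were still called (edgeR adjusted p = 2.64e-08 and 0.0123), from fewer libraries. In pairs 1 and 2 too the DM library had the lower correlation with span (0.32 against 0.39, and -0.37 against -0.31). That fit therefore does not remove the difference in span, whose part in the drop was not tested. With the block in DESeq2, lrp5 was called (adjusted p = 0.000549) and lrp6 was not (adjusted p = 0.0691). In the blocked edgeR fit lrp6 was not called without pair 1 (adjusted p = 0.313) or without pair 2 (adjusted p = 0.105). It overlaps dusp16 and lrp5 overlaps ap3s2 in the annotation, and the library kit does not mark strand, so their reads cannot be told apart where they share bases.

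Of the 11 Frizzled receptors, the blocked edgeR fit called 4 lower and 0 higher, and 9 had a negative blocked log2 fold change. The summed lens and retina markers were lower in the same DM libraries, although rx1 and rx2 of that list overlapped between the groups. Their part in the receptor levels was not tested. fzd5 acts in eye field development. It had 25.4, 13.2 and 29.0 CPM for siblings and 17.9, 10.5 and 9.32 CPM for DM embryos (log2 fold change -0.74, SE 0.19, edgeR adjusted p = 0.0112). fzd8a had 46.8, 34.6 and 49.1 CPM against 37.1, 20.3 and 21.1 CPM (-0.69, SE 0.16, adjusted p = 0.00670). The span of fzd5 is 1.92 kb and that of fzd8a 2.60 kb, beside a median of 13.8 kb for all genes. Both were also called with the span trend removed, a fit that shifts short genes too. The part of span in these calls was not tested. fzd8a and its paralog fzd8b were the receptors whose groups did not overlap once library sizes were scaled by TMM (the trimmed mean of M-values). fzd3a changed by -0.63 (SE 0.16, adjusted p = 0.0118) and fzd4 by -0.58 (SE 0.17, adjusted p = 0.0299). With the block in DESeq2, fzd4 was not called (adjusted p = 0.0815), while fzd3a, fzd5 and fzd8a were. The fzd3a and fzd4 calls were each lost without pair 1 (adjusted p = 0.0847 and 0.0572) and without pair 2 (adjusted p = 0.0894 and 0.259), and that of fzd8a without pair 2 (adjusted p = 0.0533). fzd3a overlaps fbxo16 in the annotation. The remaining receptors lay between -0.47 for fzd3b and 0.25 for fzd10, and fzd7a, a receptor at 174 to 296 CPM across embryo libraries, had -0.16.

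Inhibitors moved in both directions. tmem88a (ENSDARG00000056920) encodes a membrane protein that binds Dishevelled and restrains Wnt signalling, and in zebrafish it is known from heart and blood development. It had 9.64, 10.1 and 7.88 CPM for siblings and 4.18, 2.76 and 3.11 CPM for DM embryos. The groups did not overlap, as for the summed endothelial markers, and the blocked log2 fold change was -1.38 (SE 0.21, edgeR adjusted p = 0.000164). Its annotated span on chromosome 10, from 22613718 to 22810208, contains the histone demethylase gene kdm6bb (22754607 to 22791207) and overlaps efnb3a. kdm6bb also fell in the blocked fit (-0.75, adjusted p = 0.00440), and here too the reads cannot be told apart where the genes share bases. The paralog tmem88b, on chromosome 7, had 25.5, 25.1 and 21.5 CPM for siblings and 25.3, 23.9 and 25.3 CPM for DM embryos, with a log2 fold change of 0.12 (SE 0.15).

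axin1, the scaffold of the complex that degrades beta-catenin, had 79.8, 46.3 and 72.6 CPM for siblings and 63.8, 33.1 and 34.4 CPM for DM embryos. Every pair ran downward, most in pair 3 (log2 of -0.89), and the blocked change was -0.55 (SE 0.16, edgeR adjusted p = 0.0229). The call was lost without pair 1 (adjusted p = 0.179) or pair 2 (adjusted p = 0.0974). Its paralog axin2 is a widely used readout of beta-catenin signalling. It had 96.8, 63.5 and 85.5 CPM for siblings and 96.4, 61.5 and 54.7 CPM for DM embryos, a change of -0.16 (SE 0.16, adjusted p = 0.490), and was not called.

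Among the 12 secreted inhibitors, sfrp1a fell, dkk1a and dkk2 rose and 9 were not called. sfrp1a, a soluble protein with a Frizzled-like Wnt-binding domain, had 31.4, 24.3 and 40.9 CPM for siblings and 17.0, 6.83 and 15.0 CPM for DM embryos. All DM values lay below all sibling values, and the blocked log2 fold change was -1.27 (SE 0.17, edgeR adjusted p = 2.86e-05). dkk2 had 1.98, 1.70 and 2.14 CPM for siblings and 6.67, 4.68 and 4.93 CPM for DM embryos, a change of 1.56 (SE 0.24, adjusted p = 0.000210). dkk1a had 2.16, 2.22 and 1.80 CPM against 3.86, 4.92 and 4.18 CPM, a change of 1.1 (SE 0.25, adjusted p = 0.00615). Both genes were low, but in both the highest sibling lay below the lowest DM library, and both kept the call without any single pair. DESeq2 with the block gave neither an adjusted p. dkk1b, the ortholog best known from head formation, had 6.29, 11.9 and 10.7 CPM for siblings and 6.51, 12.5 and 11.5 CPM for DM embryos, and changed by 0.15 (SE 0.17). sfrp5 stayed between 36.1 and 41.1 CPM and wif1 between 24.1 and 29.2 CPM over all 6 embryo libraries.

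None of the 23 ligands was called. In the blocked edgeR fit 0 passed, although 5 had an unadjusted p under 0.05, and DESeq2 without the block called 0 as well. The share of all genes at that unadjusted p in the blocked fit is not given here. Their log2 fold changes ran from -0.69 (wnt2bb, needed for liver formation in zebrafish) to 0.59 (wnt7ba), with a median of 0.10, and 10 were negative. wnt11r had 44.2, 31.5 and 31.0 CPM for siblings and 54.3, 32.0 and 31.7 CPM for DM embryos. wnt3a, a ligand of the tail bud and dorsal neural tube, had 28.1, 21.7 and 22.5 CPM against 26.0, 21.1 and 18.1 CPM. wnt5b, which acts in cell movements, had 26.3, 19.2 and 21.7 CPM against 21.9, 18.8 and 13.1 CPM. In each of these 3 the groups overlapped, and none differed beyond the spread between replicates. Neither R-spondin was called in the blocked fit. rspo2 had 13.8, 14.7 and 15.3 CPM for siblings and 16.4, 18.0 and 18.8 CPM for DM embryos, without overlap, and a log2 fold change of 0.35 (SE 0.15, adjusted p = 0.123). With the span trend removed it passed (adjusted p = 0.0150), as did wnt3 (adjusted p = 0.0430). rspo3 had -0.22 (SE 0.16).

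**Figure D2:**
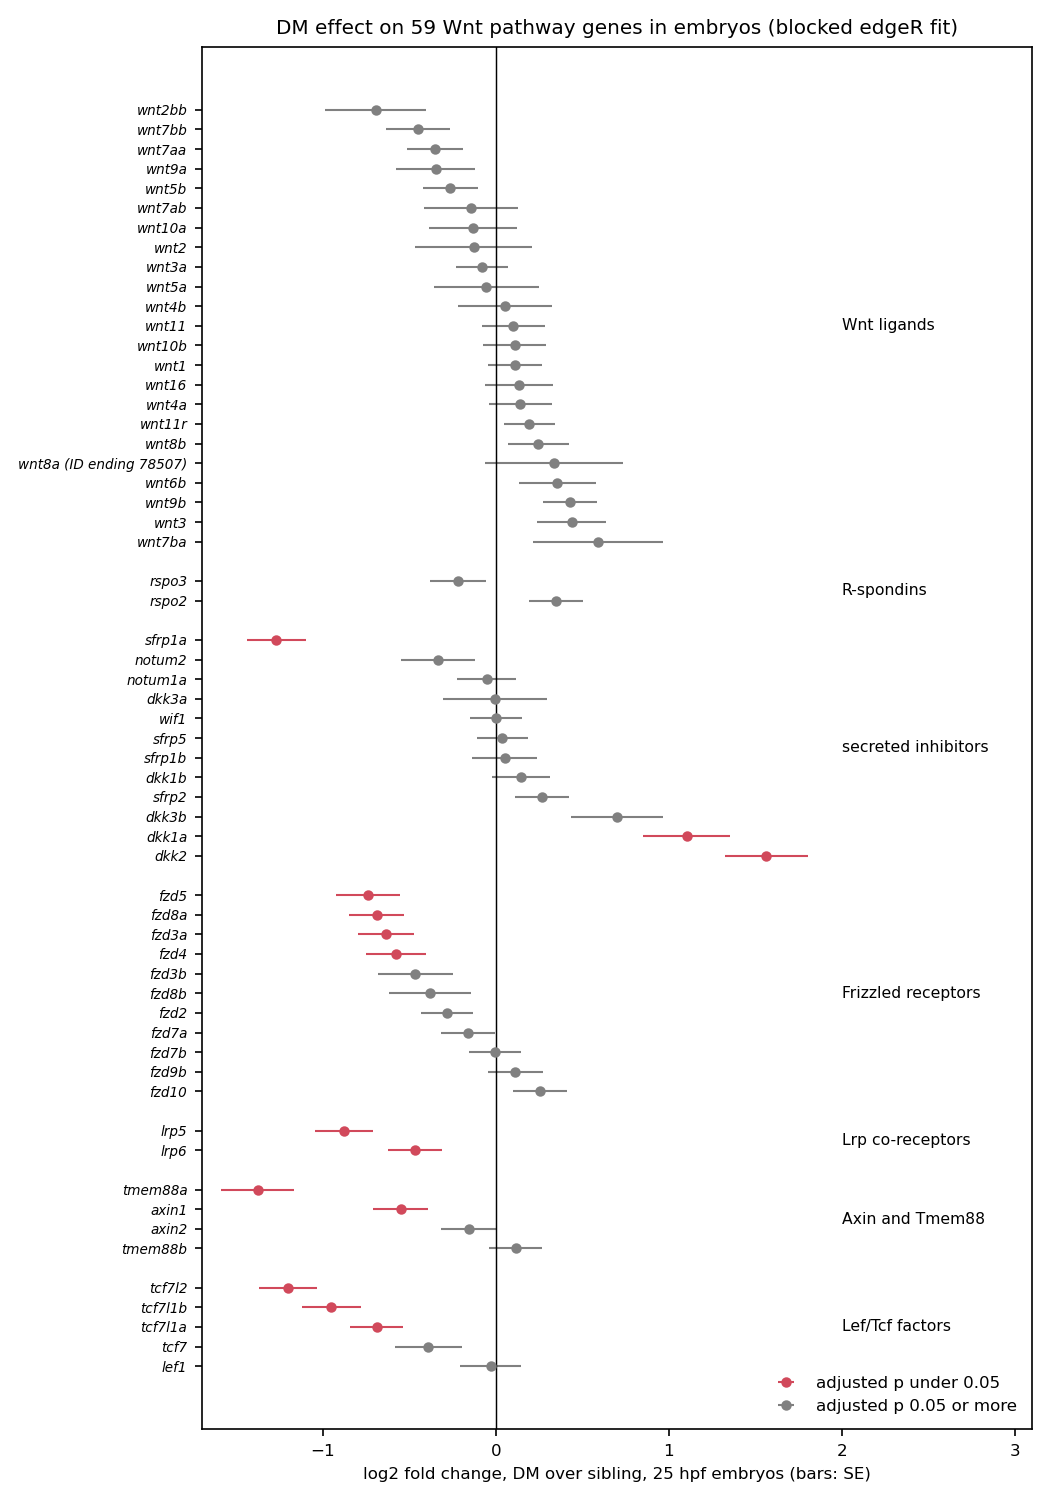
Log2 fold change of DM over sibling embryos with its SE for the 59 kept Wnt genes, from the edgeR fit with the replicate number as a block, grouped by role; red points had an adjusted p under 0.05. The called genes lie among receptors, co-receptors, Axin and Tmem88, Lef/Tcf factors and secreted inhibitors, while the 23 ligands and both R-spondins hold no called gene.

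Counting the groups that did not overlap in TMM-scaled CPM, 4 Wnt genes were lower in every DM embryo than in every sibling (fzd8a, fzd8b, sfrp1a and tmem88a), beside 3.59% of all genes tested. The same number were higher (dkk1a, dkk2, rspo2 and wnt3), beside 3.21%. Within pairs, 22 of the 59 were lower in all 3 pairs, beside 28.9% of all genes, and 11 were higher in all 3, beside 29.0%. In the authors' deposited table, whose tool is not named in the files, tmem88a (log2 fold change -1.12, adjusted p = 0.00196) and dkk2 (1.18, adjusted p = 0.00152) passed in embryos.

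Genes of the pathway outside the symbol rule were taken from lists of co-receptors, secretion, intracellular core, antagonists, planar polarity and targets. Of 93 listed genes, 74 were tested in embryos, and in the blocked edgeR fit 22 fell, beside 9.39% of all genes, and 2 rose, beside 4.37%, with a median log2 fold change of -0.32 beside 0.02 for all genes. The intracellular core gave 11 of these, all lower, out of 20 tested, beside the same 9.39%. amer2, a membrane partner of Apc, had 8.92, 5.62 and 9.68 CPM for siblings and 4.50, 1.92 and 1.93 CPM for DM embryos and fell by 1.45 on the log2 scale (SE 0.23, adjusted p = 0.000317). apc, the tumour suppressor of the destruction complex, changed by -0.78 (adjusted p = 0.00441) and gsk3b, its kinase, by -0.75 (adjusted p = 0.00512). bcl9, a beta-catenin coactivator, changed by -0.76 (adjusted p = 0.00530) and tnika, a kinase acting with Tcf, by -0.64 (adjusted p = 0.0101), a call lost with the span trend removed (adjusted p = 0.0753). The gene of beta-catenin itself, ctnnb1, named here after its value was seen, changed by -0.51 (adjusted p = 0.0496). Genes that promote and genes that restrain the signal were thus both among those that fell.

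Of the 16 tested target genes 2 fell and 1 rose, a share near the 13.8% of all genes called in this fit. cdx4, a homeobox gene of the posterior body, had 22.3, 29.1 and 17.0 CPM for siblings and 30.9, 46.8 and 37.2 CPM for DM embryos and rose by 0.82 (SE 0.16, edgeR adjusted p = 0.00271). myca, a Myc gene that other pathways also drive, changed by -0.91 (SE 0.15, adjusted p = 0.000513). The other target that fell, mitfa, is also among the neural crest and pigment markers described above. Among the antagonists the Groucho corepressor gene tle3b changed by -0.85 (adjusted p = 0.00264). In the planar polarity list celsr3 (-1.01, adjusted p = 0.00646) and celsr1b (-0.67, adjusted p = 0.00945), cadherins of that pathway, fell. With the span trend removed, 19 listed genes fell and 3 rose, beside 13.0% of all genes called. The core then gave 8 of those that fell and the targets 5, namely myca, mycb, sall4, irx3a and mycn. Without the block edgeR called 0 of the 74, though 6 had an unadjusted p under 0.05, beside 3.28% of all genes, and DESeq2 called 0 of 81.

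In DM hearts the R-spondin gene rspo2 and the inhibitor genes tmem88a and sfrp1a were the Wnt genes that passed a test, in DESeq2 and in all cases lower. The edgeR fit called 0 of 16998 genes against siblings and 0 against WT. At an unadjusted p under 0.05 stood 568 genes (3.34%) and 5 Wnt genes against siblings, and 1254 genes (7.38%) and 8 Wnt genes against WT. DESeq2 called 63 genes (0.265%) and 2 Wnt genes against siblings, and 118 genes (0.497%) and 2 Wnt genes against WT. In edgeR, 49 of the 51 kept genes passed its filter on low counts, and the other 2 were notum2 and wnt11. The comparisons with siblings and with WT share the DM libraries, so they are not separate evidence. Leaving out a heart library leaves 1 in its group, which the fits then assume to vary like the other groups.

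rspo2 (ENSDARG00000079570, chromosome 16, 38504338 to 38604289) encodes an R-spondin known from limb and lung development in mammals. It had 96.4 and 80.0 CPM for WT hearts, 35.9 and 121 CPM for sibling hearts, and 10.7 and 7.30 CPM for DM hearts. Both DM hearts lay below all 4 control hearts, and the sibling hearts differed from each other most. The DESeq2 log2 fold change was -3.20 against siblings (SE 0.65, adjusted p = 0.000776) and -3.65 against WT (SE 0.65, adjusted p = 3.43e-05). The change against siblings depended on the sibling hearts, with -2.00 without sibling heart 3 and -3.85 without sibling heart 1. The edgeR values were -3.17 (SE 0.64) and -3.60 (SE 0.65), with adjusted p of 1.00 and 0.648. Against siblings the DESeq2 call was lost without sibling heart 3 (adjusted p = 0.139) or DM heart 3 (adjusted p = 0.0613), and against WT it was made without any single library of the 6 (adjusted p of at most 0.0216). Without the lens-containing hearts (sibling 1 and DM 1) the DESeq2 log2 fold change was -4.09 against siblings and -3.88 against WT.

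rspo3, its paralog, which acts in vessel development in mice and frogs, was lower in DM hearts in the same order. It had 9.89 and 4.66 CPM for WT, 8.51 and 9.60 CPM for siblings, and 3.31 and 1.65 CPM for DM hearts. Both DM values were below all control values, but no tool called it (edgeR log2 fold change -1.89, SE 0.66, unadjusted p = 0.0237 against siblings). Summed over the 4 R-spondins, DM hearts held 16.7 and 9.65 CPM, sibling hearts 48.9 and 134 CPM, and WT hearts 107 and 86.4 CPM. In embryos the same sum was 26.9 to 29.7 CPM. Foregut mesenchyme markers, from a tissue next to the heart, made up 0.0148% and 0.00138% of WT heart counts, 0.0277% and 0.0148% for siblings, and 0.000699% and 0.000400% for DM hearts, and so were lowest in the DM hearts as well, with 3 of the 4 markers below all controls and nkx3.3 at 0 in DM heart 3. Epicardium markers made up 0.00689% and 0.00309% of WT heart counts, 0.00663% and 0.00426% for siblings, and 0.00107% and 0.00224% for DM hearts. Of these 5 markers tcf21, wt1b and aldh1a2 were below all controls in both DM hearts. The share of all genes below all controls in both DM hearts is not at hand, so these counts have no background. The foregut and epicardium shares were thus lowest in the same 2 libraries as rspo2, rspo3, tmem88a, sfrp1a, sfrp5 and wif1. Their part in these levels was not tested.

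tmem88a had 443 and 161 CPM for WT hearts, 131 and 169 CPM for sibling hearts, and 23.9 and 43.8 CPM for DM hearts. Both DM hearts lay below all controls, and WT heart 1 stood far above the other controls. DESeq2 gave a log2 fold change of -3.50 against WT (SE 0.62, adjusted p = 3.10e-05), with an adjusted p of at most 0.0272 without any single library. The change was -2.52 without WT heart 1, -4.08 without WT heart 3, -4.11 without DM heart 3 and -3.08 without the hearts numbered 1. Against siblings it was not called with all libraries (adjusted p = 0.0805). It passed there only where a WT heart was left out, which enters that comparison through the shared spread, and not without a sibling or DM heart. The DESeq2 change against siblings ran from -2.78 without DM heart 3 to -1.76 without DM heart 1. The edgeR log2 fold changes were -3.46 (SE 0.64, adjusted p = 0.648) against WT and -2.16 (SE 0.61, adjusted p = 1.00) against siblings, the latter -2.76 without DM heart 3 and -1.74 without DM heart 1. kdm6bb, which lies inside its span, was also lower in DM than in WT hearts (DESeq2 -1.49, adjusted p = 0.00762). Markers of endocardium and endothelium made up 0.247% and 0.149% of WT heart counts, 0.0889% and 0.192% for siblings, and 0.0926% and 0.137% for DM hearts, and their part was not tested. tmem88b had 162 and 93.7 CPM for WT, 58.1 and 82.8 CPM for siblings, and 87.2 and 90.7 CPM for DM hearts, so that the DM hearts lay above both siblings and below both WT hearts. In TMM-scaled CPM the DM and sibling values of tmem88b overlapped.

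sfrp1a had 12.6 and 12 CPM for WT hearts, 27.7 and 18.7 CPM for sibling hearts, and 3.49 and 5.89 CPM for DM hearts. The DM hearts were below all controls, and the siblings above WT. Against siblings DESeq2 called it (log2 fold change -2.33, SE 0.62, adjusted p = 0.0408), but the call was lost without any single library (adjusted p of 0.164 to 1), and the fold change was -1.71 without the hearts numbered 1. wif1, which binds Wnts, had 36.6 and 15.5 CPM for WT, 18.2 and 15.0 CPM for siblings, and 7.91 and 7.54 CPM for DM hearts, and missed the threshold against WT (DESeq2 adjusted p = 0.0733), passing there without WT heart 3 (adjusted p = 0.0493). sfrp5 had 71.9 and 47.4 CPM for WT, 35.6 and 36.4 CPM for siblings, and 27.6 and 27.8 CPM for DM hearts. For wif1 and sfrp5 too, both DM values lay below the 4 control values, while neither was called by edgeR or DESeq2 with all libraries. The share of all genes with both DM hearts below all 4 controls is not given here, for these or for the other Wnt genes and markers. In TMM-scaled CPM, 15.5% of all genes tested were lower without overlap against siblings alone, and 18.1% against WT alone. In the authors' deposited tables rspo2 (adjusted p = 0.00693), tmem88a (adjusted p = 0.0141) and sfrp1a (adjusted p = 0.0279) passed against siblings, and rspo2 (adjusted p = 4.18e-12) and tmem88a (adjusted p = 0.000207) against WT.

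**Figure D3:**
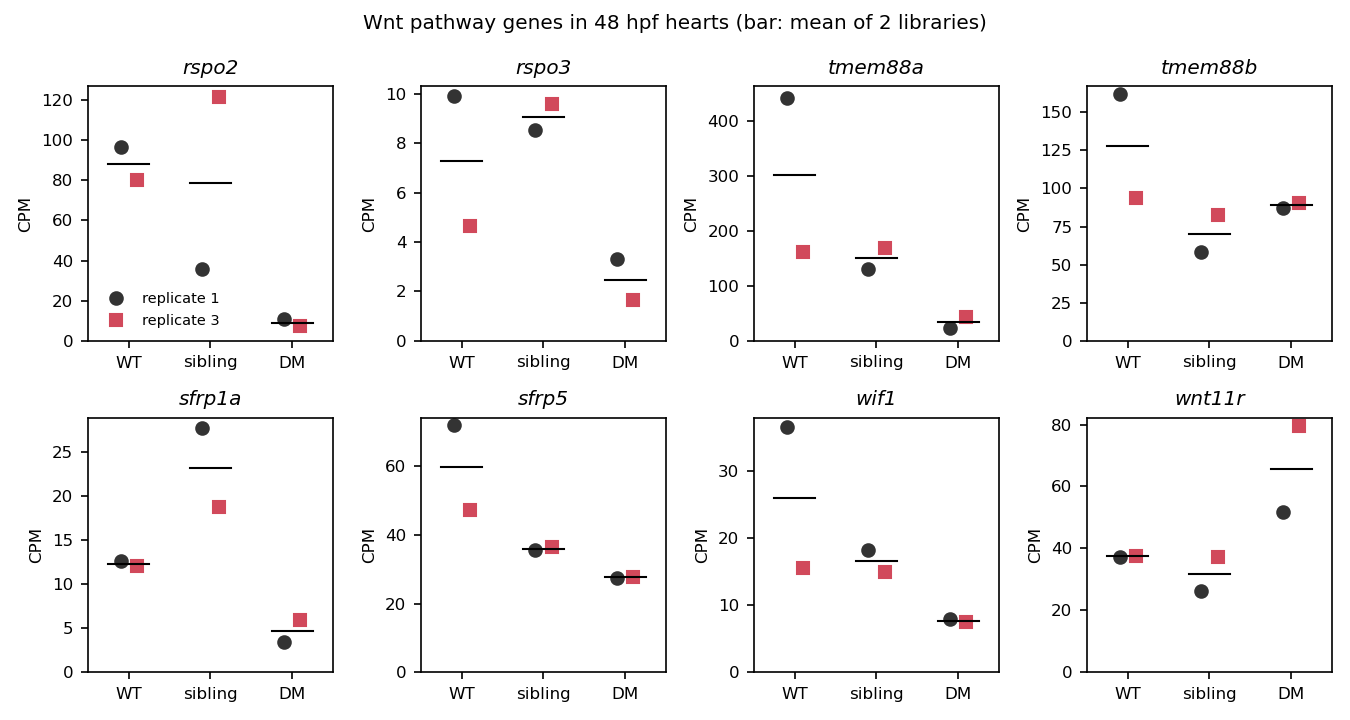
CPM of 8 Wnt genes in the 6 heart libraries at 48 hpf, with a bar at the mean of the 2 libraries of a group and each vertical axis starting at 0. In rspo2, rspo3, tmem88a, sfrp1a, sfrp5 and wif1 both DM hearts lie below all control hearts, in wnt11r both lie above, and in tmem88b they lie between siblings and WT. The share of all genes with either order is not given.

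No ligand was called in hearts by edgeR or DESeq2. wnt11r, which acts in heart tube development in zebrafish and frog, had 37.4 and 37.5 CPM for WT, 26.1 and 37.3 CPM for siblings, and 51.9 and 79.6 CPM for DM hearts. It was above all controls in both DM hearts (edgeR log2 fold change 1.04 over siblings, SE 0.42, unadjusted p = 0.0430, adjusted p = 1.00). wnt6b had 5.87 and 4.85 CPM for WT, 1.82 and 3.57 CPM for siblings, and 0.919 and 1.41 CPM for DM hearts, the last close to the limit for a count of 0. The wnt8a gene ENSDARG00000052910 had 0.671 and 1.75 CPM for WT, 1.82 and 7.14 CPM for siblings, and 16.7 and 4.24 CPM for DM hearts, a wide spread within the DM pair. wnt9b, which marks endocardium near the valve in zebrafish, had 30.5 and 49.9 CPM for WT, 10.6 and 37.3 CPM for siblings, and 17.3 and 32.7 CPM for DM hearts. In unscaled CPM the groups overlapped, while in TMM-scaled CPM both DM hearts lay below both WT hearts. wnt2bb had 26.0 and 14.9 CPM for WT, 6.99 and 15.6 CPM for siblings, and 15.1 and 8.48 CPM for DM hearts. The edgeR log2 fold changes over siblings were -1.08 (SE 0.50) for wnt7aa and -1.71 (SE 0.80) for wnt7bb. For wnt9a it was 1.98 (SE 0.89) over WT.

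Of the receptors and co-receptors, 0 of 13 were called in hearts by either tool, and 0 had an unadjusted p under 0.05 in edgeR against siblings or WT. Frizzled log2 fold changes against siblings ran from -0.66 (fzd8b) to 0.51 (fzd7a). lrp5 had 109 and 70.4 CPM for WT, 98.5 and 95.8 CPM for siblings, and 71.2 and 118 CPM for DM hearts, a change against siblings of -0.05 (SE 0.43). fzd5 had 32.5 and 18.0 CPM for WT, 12.8 and 18.7 CPM for siblings, and 18.0 and 20.3 CPM for DM hearts. axin2 had 91.1 and 86.7 CPM for WT, 82.4 and 83.3 CPM for siblings, and 63.4 and 78.4 CPM for DM hearts, and was not called. Both DM hearts lay below all controls in unscaled CPM. In TMM-scaled CPM they lay below both WT hearts and overlapped the siblings. The edgeR change was -0.24 (SE 0.34) against siblings and -0.62 (SE 0.34) against WT.

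Some Wnt genes of the neural tube were highest in the heart libraries with the largest shares of neural markers. Not all were: wnt1 had 13 counts in WT heart 3, below 20 in sibling heart 1 and 22 in DM heart 3. That share was 0.0494% and 0.435% for WT hearts, 0.290% and 0.0856% for siblings, and 0.139% and 0.213% for DM hearts. It rested mostly on elavl3 and nova2, at 1938 and 2198 CPM in WT heart 3. Of the 7 markers, gfap was higher in both DM hearts (24.8 and 34.1 CPM) than in all controls (2.46 to 18.4 CPM). None was lower in both DM hearts than in all controls, and sox3 was highest in DM heart 3 (64.5 CPM). tcf7l2 had 95.4 and 350 CPM for WT, 306 and 94.6 CPM for siblings, and 67.7 and 108 CPM for DM hearts. lef1 had 34.4 and 181, 111 and 51.8, and 23.9 and 62.4 CPM in the same order, and fzd3a 35.5 and 208, 144 and 56.5, and 78.0 and 142 CPM. In each of these WT heart 3 was the highest library and sibling heart 1 the next, and in unscaled CPM the groups overlapped. tcf7l2 and lef1 were lowest in DM heart 1, whose neural share of 0.139% was above those of WT heart 1 and sibling heart 3. In TMM-scaled CPM both DM hearts lay below both WT hearts for tcf7l2, and the groups overlapped for lef1 and fzd3a. wnt8b, a ligand of the forebrain and hindbrain, was at 0 in WT heart 1, which allows up to 0.503 CPM, and had 6.99 CPM for WT heart 3. For tcf7l2 the log2 fold change was -1.18 (SE 0.73) against siblings and -1.60 (SE 0.74) against WT, and neither passed. Without the hearts numbered 1 the change against siblings was 0.19, of the opposite sign, and the change against WT was -0.43 without WT heart 3. The part of the neural markers in these levels was not tested.

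**Figure D4:**
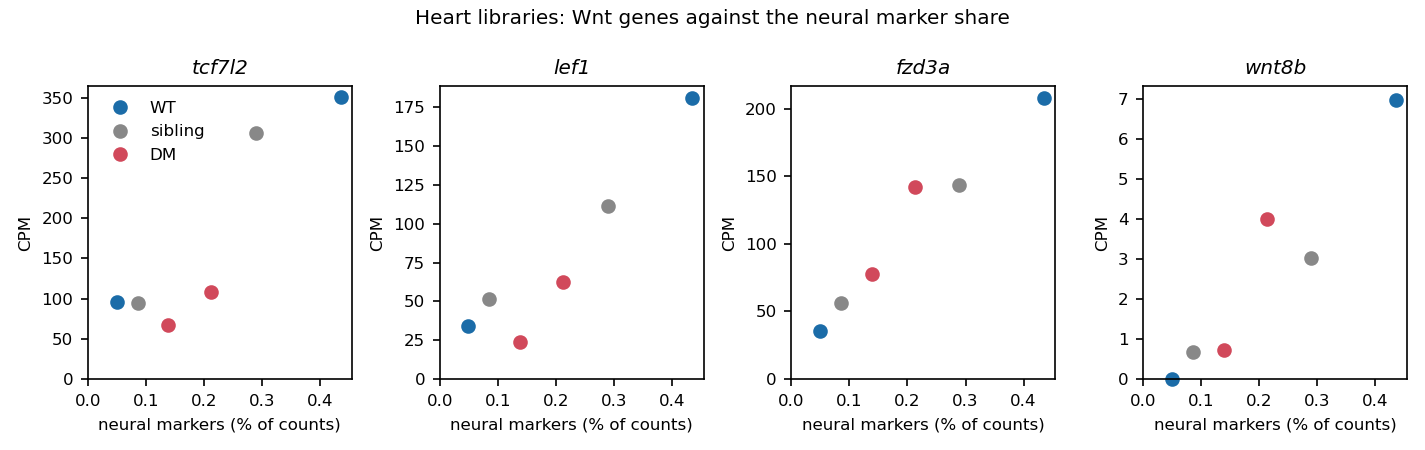
CPM of tcf7l2, lef1, fzd3a and wnt8b in the 6 heart libraries against the summed share of 7 neural marker genes in the same libraries, coloured by group. WT heart 3, with a share of 0.435%, has the highest value of each gene, and the groups do not separate on this unscaled axis.

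Over all Wnt genes, the hearts leaned lower. The median edgeR log2 fold change was -0.29 against siblings, beside 0.04 for all genes. Without the hearts numbered 1 that median was -0.09, beside 0.00 for all genes, with 26 of 49 negative, and without DM heart 3 it was -0.56. Against WT it was -0.53, beside 0.02, where 38 of 49 were negative beside 48.9% of all genes. Groups that did not overlap in TMM-scaled CPM numbered 17 lower (15.5% of all genes) and 4 higher (15.0%) against siblings, and 20 lower (18.1%) and 4 higher (20.6%) against WT. The 17 include dkk1b (counts of 3 and 0 in DM hearts) and wnt2 (1 and 2), which the CPM rule kept through the control hearts. Their place among the lower genes is thus partly set by that rule. The shares of all genes are over those that passed the edgeR filter on low counts. By role, the medians against siblings were -1.89 for R-spondins, -0.94 for secreted inhibitors, -0.90 for Lef/Tcf factors, 0.01 for receptors and 0.02 for ligands. These medians rested on single libraries. That of the Lef/Tcf factors was -0.29 without sibling heart 1, -0.33 without DM heart 1 and 0.08 without both, against -1.65 without DM heart 3, -1.32 without sibling heart 3 and -1.29 with the replicate block. That of the ligands was -0.36 without sibling heart 1, -0.68 without DM heart 3 and -0.24 with the replicate block. Receptors ranged from -0.41 without DM heart 3 to 0.25 without DM heart 1, and secreted inhibitors from -1.38 without sibling heart 3 to -0.52 without sibling heart 1. The R-spondin median, of 3 genes, was the value of rspo3 in each edgeR fit, between -2.53 and -1.56. In the same fits rspo1 ran from -2.19 to -0.418 and rspo2 from -4.05 to -1.98. The TMM scaling matters here: CPM without it shifted the median of all genes by 0.28 (log2) for DM over WT and 0.26 for sibling over WT. Of the pathway genes outside the symbol rule, edgeR called 0 of 73 against siblings and 0 of 73 against WT, and DESeq2 called 0 of 80 in each. At an unadjusted edgeR p under 0.05 stood 5 against siblings, beside 3.34% of all genes, and 4 against WT, beside 7.38%.

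Sibling hearts were set against WT hearts to compare the control groups. edgeR called 0 of 16998 genes, with 833 (4.90%) and 2 Wnt genes at an unadjusted p under 0.05, and DESeq2 called 51 genes (0.215%) and 0 Wnt genes. Those 2 were tmem88b (log2 fold change -1.14, SE 0.42, edgeR adjusted p = 0.913) and sfrp5 (-1.01, SE 0.39, adjusted p = 0.913). tmem88a had -1.30 (SE 0.59), which was -0.33 without WT heart 1 and -1.85 without WT heart 3, and rspo2 had -0.42 (SE 0.58). The median over Wnt genes was -0.17 beside 0.00 for all genes. Groups without overlap were 12 lower (15.3% of all genes) and 7 higher (16.8%), among the lower tmem88a, tmem88b, sfrp5 and wif1.

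The DM effect in hearts was set against that in embryos with an interaction contrast over the 10 sibling and DM libraries. rspo2 was the Wnt gene whose effects differed. It had 0.35 (SE 0.20) in embryos and -3.17 (SE 0.64) in hearts in the unblocked edgeR fits, and DESeq2 called the difference (-3.62, SE 0.67, adjusted p = 6.49e-05), which was -2.39 without sibling heart 3 and -4.26 without sibling heart 1. In edgeR the difference was -3.57 (SE 0.64, adjusted p = 0.105), where 9 of 19689 genes were called (0.0457%), and it passed there without sibling heart 1. DESeq2 called 87 of 24570 genes (0.354%). Of the 48 Wnt genes kept in both tissues, 7 had an unadjusted p under 0.05 in edgeR, beside 5.9% of all genes. tmem88a (difference -0.79, SE 0.51) and sfrp1a (-1.10, SE 0.59), which were lower in both tissues, did not pass, and neither did rspo3 (-1.69, SE 0.50, adjusted p = 0.628) or wif1 (-1.15, SE 0.39, adjusted p = 0.710). Stage, tissue and RNA amplification cannot be told apart in this contrast. The fit gives each gene the same spread in embryos and hearts, so the embryo libraries enter the spread of the heart effect. For rspo3 the SE of the difference (0.50) was thus below that of the heart effect alone (0.66).

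**Figure D5:**
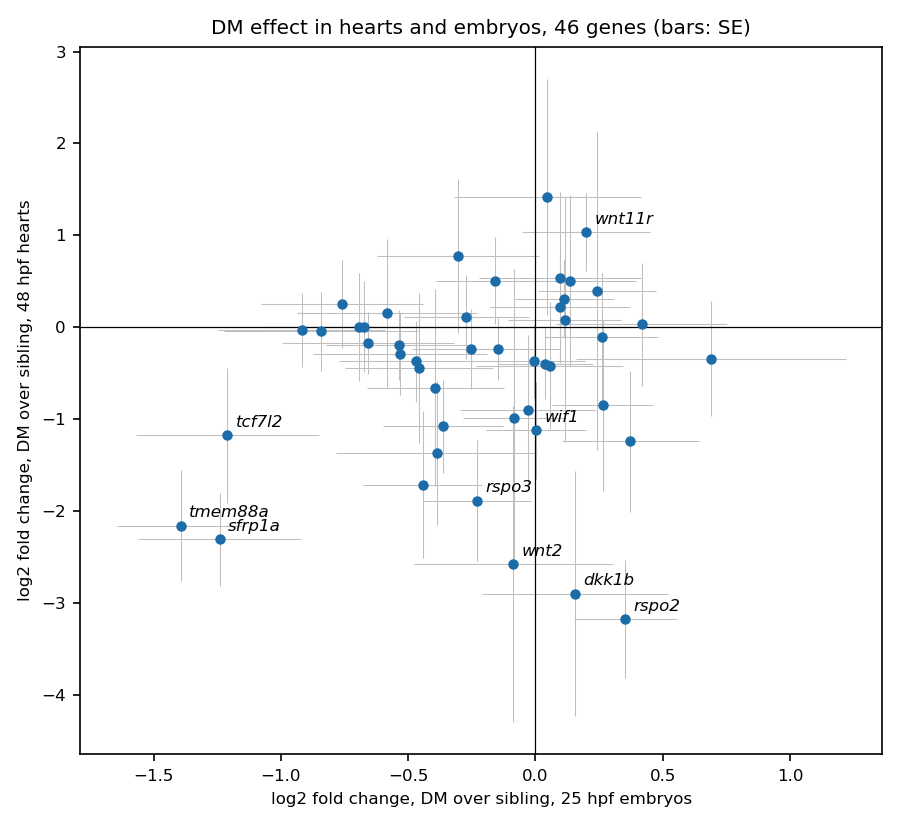
Log2 fold change of DM over sibling in 48 hpf hearts against that in 25 hpf embryos, with SE, for the 46 Wnt genes tested in both unblocked edgeR fits. rspo2 lies at 0.35 in embryos and -3.17 in hearts, tmem88a and sfrp1a lie low on both axes, and most genes have bars that cross 0 in hearts.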

How the data were processed

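RNA-seq of 12 libraries was analysed from raw gene counts deposited by the authors for 25680 genes (STAR 2.3.0e, HTSeq 0.6.0 and GRCz10 are named in the submitters' processing notes, without their roles). For each comparison the authors deposited log2 fold changes with p-values, and the tables also hold 18 columns of normalised values per sample that were not used. In their heart tables against WT the sign was turned. Samples were grouped by the labels alone, and as nothing states separate clutches, the spread behind a p-value may be only technical.

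After TMM scaling and filterByExpr, all genes were fitted in edgeR 4.0.16 (quasi-likelihood F test, R 4.3.3, limma 3.58.1), with the Benjamini-Hochberg threshold at 0.05. Adjusted p values are from edgeR unless DESeq2 (1.42.0, Wald test) or the authors' deposited table is named. The 6 embryo libraries formed a fit, the 6 hearts another, and 10 libraries the interaction. Both tools were tested on simulated data. Blocked values are printed for embryos because equally numbered libraries deviated together (correlations across genes of 0.85, 0.67 and 0.27, each over 0.1), although sibling 2 and DM 3 had 0.51 and the labels state no pairing. Hearts were not paired unless the replicate block is named. Equally numbered hearts gave correlations of 0.30 for sibling and DM, -0.25 for WT and sibling, and -0.03 for WT and DM. Other alternatives were DESeq2 size factors, no filter on low counts, removal of the trend with genomic span (lowess, span 0.3) and leaving out libraries.

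Genes were picked for naming if called, if among the 10 smallest p of a comparison, or if among the 3 highest of a role. Not all of these are described in each comparison, and wnt2, picked for the interaction, is not described there. Members and lists were chosen with earlier results of these data known. Of 67 identifiers, 66 matched current gene names.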

Additional observations from a re-analysis of the deposited data

Results flagged for a closer look

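The DM effect on rspo2 differed between hearts and embryos by -3.62 on the log2 scale in the DESeq2 interaction test (adjusted p = 6.49e-05), which is why it is listed here. The gene was higher in all 3 DM embryos than in all 3 siblings, and lower in both DM hearts than in both sibling hearts. The difference was -2.39 without sibling heart 3 and -4.26 without sibling heart 1. DESeq2 called it without any single embryo library (adjusted p from 0.000152 to 0.00159), and edgeR did not call it with all libraries (adjusted p = 0.105). Leaving out a heart library leaves 1 in its group. Each gene has the same spread in embryos and hearts in these fits, so the embryo libraries enter the spread of the heart effect. Over the edgeR alternatives the adjusted p ranged from 0.0117 to 0.385. No group has more than 3 libraries, so no library was tested as standing apart from its group.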

How the results depend on the processing

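In embryos, 0 genes and 0 Wnt genes were called by edgeR with all libraries, against 36 and 2 by DESeq2, 2453 and 14 with the replicate block, 2324 and 15 with the block and the span trend removed, and 1273 and 10 with the block in DESeq2. Without a pair, the blocked counts ranged from 536 to 3119 genes and from 9 to 16 Wnt genes, and leaving out a library gave 0 to 2 genes in edgeR and 13 to 1176 genes, with 0 to 10 Wnt genes, in DESeq2.

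For DM over sibling hearts, DESeq2 called 63 genes and 2 Wnt genes (19 to 127 and 0 to 2 without a library, 6 and 1 without the hearts numbered 1), and edgeR with no filter called 3 genes. For DM over WT hearts these were 118 and 2 (31 to 248 and 2 to 3, then 36 and 2), and 3 genes with no filter. For sibling over WT hearts DESeq2 called 51 genes (9 to 72 without a library, 13 without the hearts numbered 1). With the replicate block edgeR called 0 genes in each heart comparison, and 0 with the WT numbers crossed for sibling over WT.

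For the interaction, edgeR called 9 genes (0 to 41 without a library, with 0 to 1 Wnt genes), 17 with DESeq2 size factors and 14 with no filter. DESeq2 called 87 genes and 1 Wnt gene (37 to 324 and 1 without a library).

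A mean of 5 CPM in place of 1 kept 32 Wnt genes in hearts. The genes that were called or had the smallest p of a comparison kept their direction in all of these fits. Other Wnt genes did not: 23 of 59 in embryos, 25 of 49 for DM over sibling hearts, 22 for DM over WT, 24 for sibling over WT and 20 of 48 for the interaction changed sign in at least 1 fit. In embryos lef1 had 0.193 with the span trend removed, with or without the replicate block, and -0.261 to 0.227 without a library or pair. dkk1b had -0.0358 with the block and the span trend removed, -0.0335 with the trend removed alone, and -0.105 to 0.44 without a library or pair, tcf7 -0.810 to 0.0477 and tmem88b -0.0212 to 0.190. For DM over sibling hearts without the hearts numbered 1, tcf7l2 had 0.185 in edgeR and 0.154 in DESeq2, and lrp5 0.295 and 0.263. Without a library, lrp5 had -0.566 to 0.322 and fzd8b -1.17 to 0.0128. For sibling over WT hearts rspo2 had 0.224 in edgeR and 0.212 in DESeq2 without the hearts numbered 1, and -1.65 to 0.214 without a library. The median of the Wnt genes also changed sign in DESeq2 fits without a library, where it reached 0.0069 in embryos and 0.11 for the interaction. Without the hearts numbered 1 the sibling and DM groups hold 1 library each and the spread comes from the 2 WT hearts alone, so counts of calls in that setting support nothing. The fits without the hearts numbered 1, the DESeq2 block, the crossed numbers and the DESeq2 leave-one-out fits include choices made after the data were seen. The planned promoter motif count was not run, as no promoter sequences were used here. The cause of the differences between settings was not tested. Depth limits the hearts most, where 3 counts reach 0.912 CPM in the shallowest library.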
